A study of Arabidopsis thaliana with 3 samples.

Results

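This account describes 177 Arabidopsis genes, measured by 178 probe sets, whose signal was high 3 h after freezing and near the control level again at 24 h. They come from 13355 genes that the array's annotation names singly, on 13513 probe sets. A probe set is a group of short probes for one transcript, and its signal is a linear brightness. Signals below 16.1 were set to that floor, about the 30th percentile of all signals. Members were chosen by their measured signals on all 3 arrays: each was at least 3-fold above the cold-acclimated control at 3 h and within 2-fold of it at 24 h. Genes with CML, PUB, UGT or PDF symbols, STZ, BZIP28, BZIP60 and organelle-encoded genes were left out. The rule leaves out ribosomal proteins too, but the annotation marks none by name, so none was removed.

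All plants were Col-0, the reference accession, and all aerial parts were taken at growth stage 1.14. Seeds were held for 2 days at 4 °C, and plants were then grown at 20 °C with 9 h of light and 15 h of dark. Every group, the control included, had been cold-acclimated at 4 °C under the same cycle for 11 days. The control was collected at that point, after 5 h of light. Freezing of the remaining plants began as a light period ended and lasted 20 h, at 6.0 °C as labelled, where no sign is printed. They were then kept at 20 °C without light, and collected 3 h or 24 h later. There was 1 array in each of the 3 groups, each titled replicate 3. The labels do not say how many plants went into an array.

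Cold acclimation prepares leaves for ice that forms between the cells, draws water out of them and strains membranes and walls. On thawing, water can return to the cells. Plant cells answer injury, touch, cold and microbial elicitors with a fast and passing rise of many transcripts. Calcium sensors, receptors, transcription factors, secretion proteins and wall-modifying enzymes are known among such early transcripts.

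With 1 array per group no test was possible, and a ratio describes a pair of arrays. The rule used all 3 arrays, so the members' values below are descriptions. The error these arrays give is the disagreement between 2 probe sets of one gene. As an SD per probe set it was 0.33 log2 units at 3 h and 0.40 at 24 h over 77 genes. It leaves out the spread between plants. The 3 h array came from darkness at hour 8 of the 24 h cycle and the 24 h array at hour 5, the hour of the lit control. Freezing, warmth, darkness and hour of day therefore cannot be told apart for the 3 h values. For the 24 h values freezing, warmth and darkness cannot be told apart. Those plants had been without light for 44 h, against 23 h at 3 h. Whole shoots were measured, so fewer cells of a type and less RNA per cell cannot be told apart either. The leaf genes RCA (3216, 2990 and 4068 in the order control, 3 h, 24 h) and LHCB4.2 (1965, 1330 and 4153) were bright on all arrays. The root hair expansin EXPA7 was near or below the floor (20.5, 22.5 and 8.38), and the stomatal factor FAMA was at 46.7, 38.8 and 42.8.

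The rule took 178 of 13353 probe sets, which is 1.33%. At 3 h, 257 of 9223 probe sets above the floor on either array were at least 3-fold higher than the control (2.79%). Of these 257, 178 (69.3%) were within 2-fold of the control at 24 h, 76 (29.6%) were still more than 2-fold higher, and 3 were more than 2-fold lower. At 24 h, 84.6% of all measured probe sets were within 2-fold of the control. The members' median signal was 53.1 on the control, 257 at 3 h and 67.6 at 24 h. For all 13353 probe sets the medians were 32.8, 30.1 and 32.7. The members' 3 h signals ran from 48.3 to 2797. Of them 26 reached 1000, 120 lay between 100 and 1000, and 32 were below 100.

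**Figure D1:**
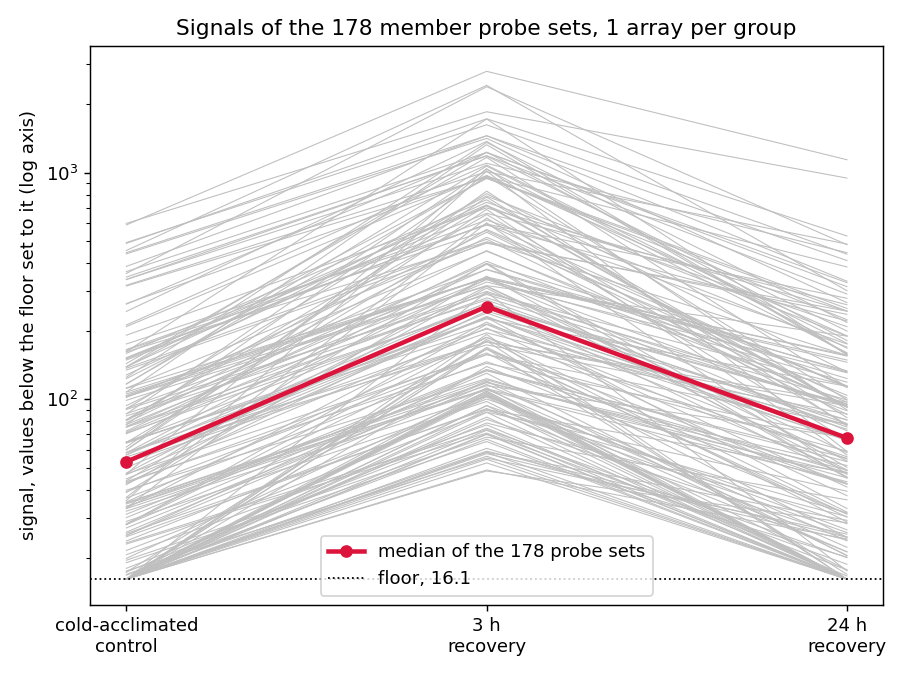
Signals of the 178 member probe sets on the 3 arrays, on a log axis, with values below the floor of 16.1 drawn at it; each grey line is a probe set and the red line is the median (53.1, 257 and 67.6). The peak at 3 h and the return at 24 h are set by the rule.

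The median log2 ratio at 3 h was 2.14, with a range of 1.59 to 4.83, against -0.14 for all measured probe sets. Ratios of at least 4-fold were found in 102 members, of at least 8-fold in 30 and of at least 16-fold in 5. The control was below the floor for 33 members, whose ratios are bounds. Without them the median of the other 145 was 2.08. Scaling the arrays to the bacterial hybridization controls, which were 1.63-fold brighter at 3 h than on the control array, lowered the members' median to 1.43. The median of 5659 bright probe sets then stood at -0.86. With that scaling 153 of the 178 were still at least 2-fold higher at 3 h, and SEC15B was at 0.99. Before it, 5.56% of all measured probe sets were that much higher at 3 h, 3.82% that much lower, and 7.5% that much higher at 24 h.

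**Figure D2:**
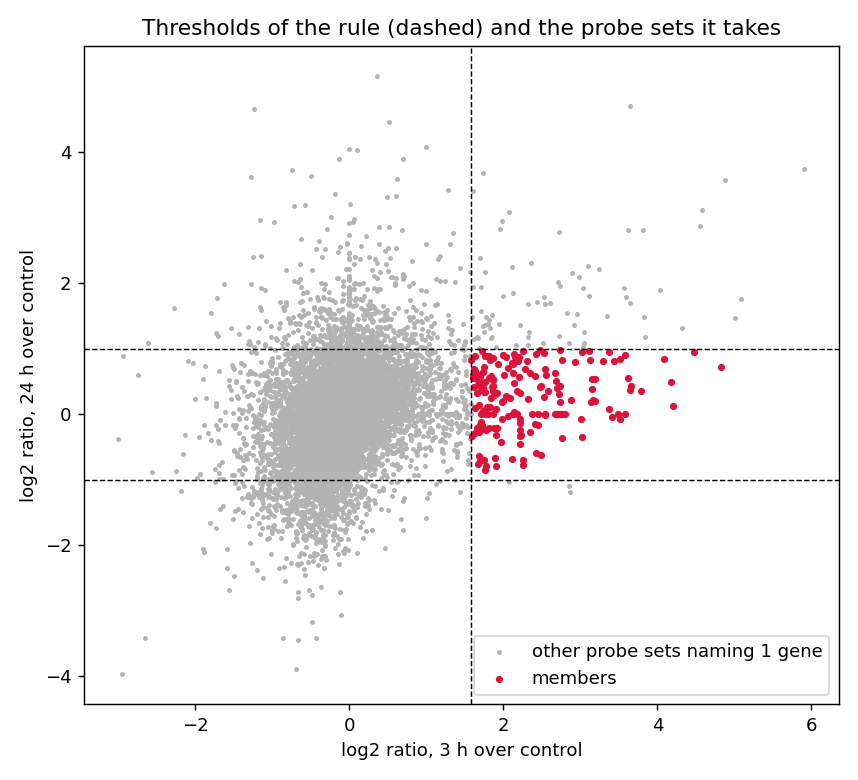
The log2 ratio at 3 h (horizontal) against that at 24 h (vertical), both over the control, for each probe set that names 1 gene; members are red and the dashed lines are the rule's thresholds. Of 257 probe sets right of the 3-fold line, 178 lie between the horizontal lines and 76 above them. The axes share the control array.

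Among the members 17 carry a gene symbol, and the other 161 probe sets are known by locus code alone (90.4%, against 89.4% of all the probe sets). No role is given here for a locus that the annotation does not describe. The members with symbols include receptors and a peptide, a phosphatase, a calmodulin-linked protein, regulators, wall enzymes, transport and secretion proteins, and enzymes of metabolism.

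EFR, the receptor kinase that recognizes the bacterial elongation factor Tu, had a signal of 1.65 on the control, 73.1 at 3 h and 4.05 at 24 h. The 3 h array alone was above the floor, at least 4.54-fold above the control. The other measured genes of the same role list, the kinases BIK1 (145, 202 and 189) and ATMPK8 (137, 146 and 126), were within 2-fold of the control at both times. RALFL22, a secreted peptide of the rapid alkalinization family, was at 70.5, 294 and 115. Its log2 ratios were 2.06 at 3 h and 0.70 at 24 h. Of 6 measured RALF-like genes 2 were at least 2-fold higher at 3 h, where 5.56% of all measured probe sets were. RALFL22 had to be by the rule. The other was RALFL33, at 126, 315 and 306, which did not come down by 24 h. For RALFL34 the signals were 360 (control), 221 (3 h) and 239 (24 h).

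GID1B is a gibberellin receptor, and its signals were 43.4, 144 and 67.7. Its log2 ratio was 1.73 at 3 h. The other gibberellin receptors stood lower at 3 h than on the control: GID1A at 195 and 116, and GID1C at 32.9 and 18.9. Their ratios of -0.75 and -0.80 were within 2-fold, and at 24 h GID1C was at 76.0. HHP2, a heptahelical membrane protein, was at 19.5, 68.1 and 36.0, close to the floor on the control. PIA1, a protein phosphatase of the PP2C class named for its induction by the bacterial effector AvrRpm1, was the brightest member with a symbol. It was at 264, 960.2 and 384, a 3.63-fold difference at 3 h and 1.45-fold at 24 h.

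IQD22 belongs to the IQ-domain proteins, which bind calmodulin. It was at 42.6, 245 and 81.1, with log2 ratios of 2.52 and 0.93. Of 10 measured IQ-domain genes 2 were at least 2-fold higher at 3 h and 1 at least 2-fold lower. Of all measured probe sets 5.56% and 3.82% were, and IQD22 had to be higher by the rule. IQD23 was the other one higher (66.7, 175 and 45.2), and iqd21 was the lower one (111, 49.0 and 87.9). The median of the 10 at 3 h was -0.28. AT1G76640, for which RefSeq lists CML39 as a synonym, stayed in the set because its symbol is the locus code. It was at 1.38, 70.0 and 0.795, at least 4.35-fold higher at 3 h and below the floor on the other arrays.

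ORA47, an AP2/ERF transcription factor that acts on jasmonate synthesis genes, was at 33.7, 111 and 47.0 (log2 ratio 1.72 at 3 h). It was 1 of 4 measured ERF and DREB factors. The related tny was at 26.2, 68.2 and 37.9, a ratio of 1.38 that falls short of the rule. HRD (17.8, 22.3 and 15.5) and TINY2 (36.1, 25 and 17.7) were within 2-fold at 3 h. GRX480, a glutaredoxin that interacts with TGA factors and links salicylate to jasmonate signalling, was at 46.6, 232 and 54.5. Its ratio was 2.32 at 3 h and 0.23 at 24 h. None of the other 4 measured glutaredoxins was past 2-fold at 3 h: GRXC2 was at 1751, 1697 and 1648, and ROXY1 at 16.7, 21.8 and 10.2.

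**Figure D3:**
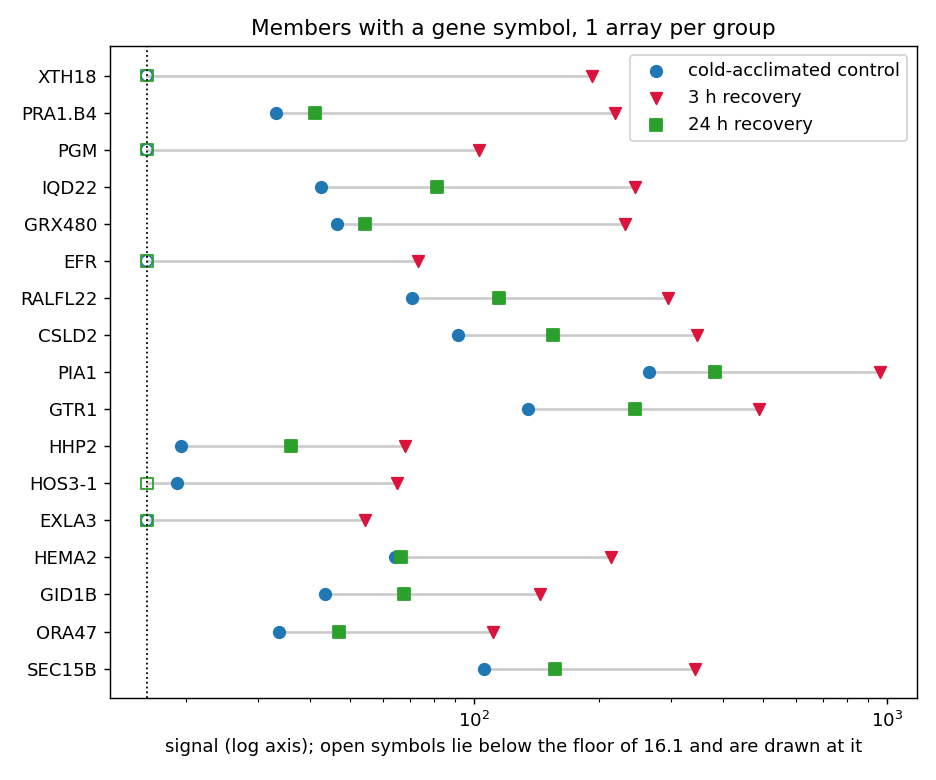
Signals of the 17 members with a gene symbol on a log axis, ordered by their ratio of floored signals at 3 h; circles are the control, triangles 3 h and squares 24 h, and open symbols lie below the floor of 16.1 and are drawn at it. XTH18, PGM, EFR and EXLA3 were above the floor at 3 h alone, whereas PIA1 was at 264, 960.2 and 384.

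The members matched by name in the cell wall role list were 3. XTH18, which cuts and rejoins xyloglucan, was at 5.44, 193 and 15.7, at least 12-fold higher at 3 h. Its neighbour on the chromosome, XTH19, was at 20.8, 164 and 88.2, so it too was more than 3-fold higher at 3 h but remained 4.25-fold above the control at 24 h. The other 5 measured XTH genes were within 2-fold at 3 h, XTH16 at 82.9 and 43.6 among them. XTH33 was at 15.8, 20.5 and 80.0, and so was high at 24 h instead. Short probes may not tell close copies such as XTH18 and XTH19 apart, which was not tested.

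EXLA3, an expansin-like protein, was at 4.00, 54.4 and 7.0, at least 3.38-fold higher at 3 h. All 3 expansin-like A genes were at least 3-fold higher at that time, where 2.79% of all measured probe sets were. EXLA3 had to pass by the rule, and the family was picked after values were seen. The controls of EXLA3 and EXLA2 were below the floor, so their ratios are bounds. EXLA1 was at 94.5, 1549.7 and 350.1 and EXLA2 at 13.6, 63.9 and 56.3, and both were still more than 3-fold higher at 24 h. CSLD2, a cellulose synthase-like enzyme, was at 91.2, 347 and 155 (ratio 1.93 at 3 h). It was the only one of 8 measured CSL genes past 2-fold at 3 h, where CSLC04 came next at 196, 320 and 438. In the whole cell wall list 6 of 53 measured genes were at least 3-fold higher at 3 h, where 2.79% of all probe sets were, and the median was -0.24. Of these 6, the 3 members had to pass by the rule.

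In membrane traffic, SEC15B, a subunit of the exocyst that tethers secretory vesicles, was at 106, 342 and 157 (ratio 1.69). Of the other 6 measured exocyst subunits, none was past 2-fold at 3 h. Its relative SEC15A was at 32.6, 31.3 and 33.9. PRA1.B4, a prenylated Rab acceptor, was at 33.1, 219 and 41.1, with a ratio of 2.73 at 3 h and 0.31 at 24 h. Of 10 measured PRA1 genes, PRA8 was the only other one past 2-fold at 3 h (110, 249 and 161). Of all measured probe sets 5.56% were at least 2-fold higher then, and PRA1.B4 had to be by the rule. GTR1, a glucosinolate transporter, was at 135, 488 and 245, and GTR2 at 299, 208 and 435. Their log2 ratios at 3 h were 1.86 and -0.53. Among the 29 measured transport genes 3 were at least 3-fold higher at 3 h, where 2.79% of all probe sets were. Besides GTR1, which had to pass by the rule, these were SWEET2, a sugar transporter (42.2, 213 and 101), and AT5G52050 (6.77, 323 and 39.9), which both stayed more than 2-fold higher at 24 h.

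HEMA2, which encodes glutamyl-tRNA reductase of tetrapyrrole synthesis, was at 64.3, 215 and 66.4, with ratios of 1.74 and 0.05. HEMA3 was at 16.4, 22.3 and 11.0. PGM (AT1G78050), a phosphoglycerate mutase by its RefSeq name, was at 5.32, 103 and 7.66, at least 6.38-fold higher at 3 h. HOS3-1 was at 19.0, 65.2 and 4.40, near the floor or below it on the control and at 24 h.

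**Figure D4:**
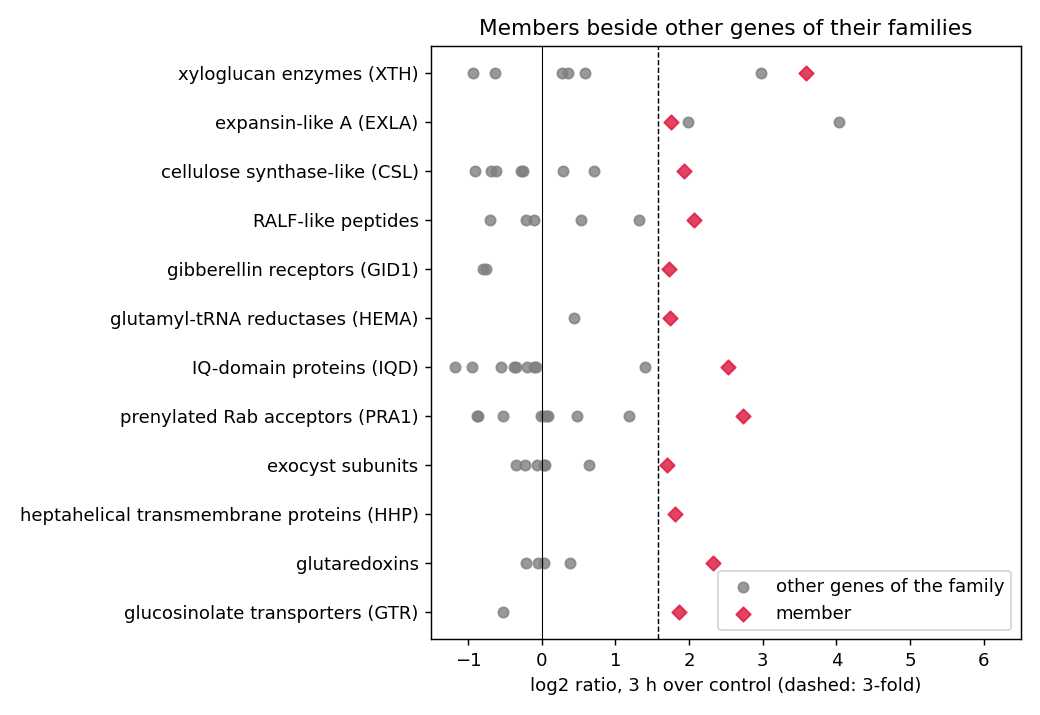
The log2 ratio at 3 h over the control for the measured genes of 12 families, with members as red diamonds and the other genes as grey circles; the dashed line is 3-fold. The EXLA family has all 3 genes right of the line, and for GID1 the other receptors lie left of 0. The members had to lie right of the line, where 2.79% of all measured probe sets lie, and the families were picked after values were seen.

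By symbol or synonym, 8 members were matched in 6 of the 22 role lists. The cell wall list had 3. There was 1 each in ERF and DREB factors, calcium signalling, kinases and receptors, transport, and membrane traffic. These 6 lists held 132 measured genes, and the rule took 1.33% of all 13353 probe sets. The 6 are set apart by holding a member, so the shares are not compared. The other lists matched no member: 14 had genes on the annotation and 2 had none. For the zinc finger proteins and the other DNA-binding factors, as listed, the rule's exclusions fixed this. STZ and BZIP28 in those lists met both thresholds and were left out by symbol. A list matches names, and 90.4% of the member probe sets carry a locus code alone. A member can therefore have a role and go uncounted. The gibberellin receptor GID1B and the prenylated Rab acceptor PRA1.B4 are in none of the 22 lists. WRKY factors had 0 of 6 measured genes at least 3-fold higher at 3 h, and heat shock factors and chaperones 0 of 9. Of all measured probe sets 2.79% were, so lists this short cannot be told from the rest. WRKY22 was just short of the line (25.4, 72.7 and 38.5, 2.86-fold at 3 h).

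Among the members above the floor on the control, the highest ratios belonged to genes known by locus code. AT4G35985 was at 35.8, 1016 and 58.9, a 28.4-fold difference at 3 h. AT4G29780 was at 46.8, 1042 and 89.9 (22.2-fold). AT3G04010 was at 33.1, 601 and 46.7 (18.2-fold), and AT4G18950 at 37.0, 630.2 and 66.2 (17.1-fold). On the control these 4 were somewhat above the median of all 13353 probe sets, which was 32.8. At 3 h they were among the brighter signals.

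In the same group, the next of the 12 highest ratios lay between 3.41 and 3.79. AT5G65300 was at 59.8, 828 and 76.4, and AT1G61890 at 61.6, 779.9 and 83.1. AT4G24380 was at 77.4, 967 and 99.5. AT4G39670 was at 108, 1327 and 158, and AT3G59350 at 86.2, 1033 and 160.45. All of these remained above the control at 24 h, by log2 ratios of 0.35 to 0.90. AT1G56660 (60.0, 688 and 56.9) and AT3G44190 (162, 1724 and 157) instead returned to within 0.08 log2 units of the control. AT5G13200, at 125, 1358 and 218, was still 1.75-fold higher at 24 h.

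Among the 33 members below the floor on the control, 19 were below it again at 24 h. AT2G17660 was the brightest of the 33 at 3 h, at 3.78, 298 and 17.5, at least 18.5-fold higher. AT5G56980 was at 9.29, 184 and 28.8 and AT5G38700 at 6.40, 181 and 6.64. AT5G01380 (10.2, 167 and 16.9), AT2G38250 (12.2, 167 and 31.2) and AT5G40540 (11.8, 140 and 31.3) were above the floor at 24 h. AT4G28550 was at 9.04, 113 and 8.10. For these genes the size of the difference depends on the floor. In 14 of the 33 the 24 h signal was above the floor, so their 24 h ratio is a lower bound. Whether those 14 lie within 2-fold of the control at 24 h thus depends on the floor too. With the floor at the 15th percentile 163 of the 178 still met the rule.

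By brightness at 3 h the leading members were AT5G16010 (588, 2797 and 1139.6), AT3G05500 (453, 2426 and 301) and AT3G17800 (359, 2392 and 481). AT5G16010 was 1.94-fold above the control at 24 h, near the rule's limit, and AT3G05500 was below the control. AT5G01750 was at 597, 1855 and 946. AT3G49220 (487, 1727 and 526), AT1G71950 (492, 1625 and 437) and AT1G18210 (444, 1454 and 409) differed from the control at 24 h by less than the probe set error.

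At 24 h the members' median log2 ratio was 0.32, against 0.02 for all measured probe sets. Of the 145 members above the floor on the control, 100 were above the control at 24 h and 45 below it. Of all 178, 69 were within 1.25-fold of the control and 112 within 1.5-fold, 53 were more than 1.5-fold higher and 13 more than 1.5-fold lower. The 69 and the 112 include the 19 members below the floor on both arrays, whose ratio is 0 because of the floor. With scaling to the hybridization controls the median at 24 h was 0, so the median's place above the control depended on the scaling. That 0 is the ratio the floor gives to members below it on both arrays, not a measured equality. Between 3 h and 24 h the members differed by 1.67-fold to 17.2-fold, with a median of 3.98-fold. A fall of 2-fold or more from 3 h to 24 h was seen in 167 members and in 8.07% of all measured probe sets; the rule fixes most of this.

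**Figure D5:**
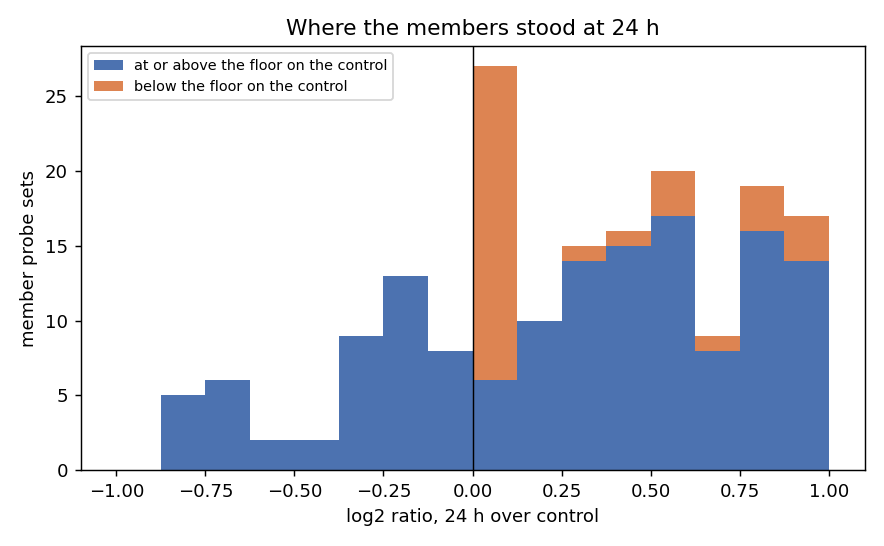
Number of member probe sets by log2 ratio at 24 h over the control, in bins of 0.125, for members at or above the floor of 16.1 on the control (blue) and below it (orange). The 19 members below the floor on both arrays have a ratio of 0; of the 145 blue ones 100 are above 0 and 45 below.

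The limits of the rule ran through a continuous range. Just inside 3-fold at 3 h were AT2G27310 (11.8 and 48.8), AT3G60450 (316 and 950.3) and AT1G76470 (14.8 and 48.3). Just outside were COR47, a cold-induced dehydrin at 1288 and 3852 with a ratio of 1.58, AT1G11670 (15.6 and 47.9) and AT5G11070 (189 and 562). At 24 h the members nearest the upper limit were AT5G26770 (0.98), AT2G32140 (0.97) and AT4G01090 (0.96). Just beyond it were AT5G54940 (1.00), SRC2 (1.02) and AT2G42270 (1.02). SRC2 was at 355, 2918 and 719, and so came down 4.06-fold from 3 h without meeting the rule. At the lower limit stood AT1G11220 (-0.85), AT3G52740 (-0.80) and AT4G36500 (-0.79). The 3 genes that had passed below it were AT1G11210 (217, 916 and 106), AT4G36010 (129.9, 939.6 and 61.0) and AT1G51090 (139, 1010.1 and 60.6).

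AT1G10090 was measured by 2 probe sets. It was at 104, 373 and 124 on one probe set and at 28.0, 214 and 48.4 on the other. Both met the rule, with log2 ratios at 3 h of 1.84 and 2.94, a gap of 1.09 that exceeds the usual disagreement between probe sets. A single member, AT3G28530 (28.1, 130.4 and 20.4), rests on a probe set marked as cross-hybridizing.

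A further 10 probe sets met both thresholds and were left out by symbol: 3 of PUB genes, 2 each of UGT and PDF genes, and CML37, STZ and BZIP28. Among them UGT76E11 was at 60.5, 400 and 102. PUB22, a ubiquitin ligase, was at 8.77, 52.1 and 15.5, and UGT76E1 at 1.65, 65.4 and 1.84.

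Gene order was not used by the rule. The 177 genes were placed in the order of protein-coding genes, and 4 pairs were next to each other. AT4G27652 (42.0, 310 and 48.8) and AT4G27654 (17.3, 169 and 30.3) had ratios at 3 h of 2.88 and 3.29. RALFL22 lies beside AT3G05500, AT1G16850 (438, 1416 and 267) beside AT1G16860 (75.3, 255 and 94.8), and AT5G59480 (165, 555 and 101) beside AT5G59490 (16.8, 59.1 and 24.6). In 3 of the 4 pairs the genes stood on opposite sides of the control at 24 h. In all, 10 pairs with 19 genes lay within 5 places of each other. How many such pairs other sets of 177 genes would hold was not counted. No clustering is therefore read from these pairs, and shared probes between neighbours were not tested.

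The genes next to a member that are no member themselves were also read. Of 125 such probe sets with a measured signal, 14 (11.2%) were at least 2-fold higher at 3 h, where 3.70% of all probe sets that are no member were. At least 3-fold higher were 7 (5.60%), against 0.873%. The median of the 125 was -0.03, against -0.14 for all measured probe sets. The 7 were EXLA1, XTH19, AT5G38710, AT1G11210, AT2G32150, AT2G42360 and AT2G38240. AT2G38240 was at 126, 1554 and 886, beside the member AT2G38250. AT2G32150 was at 21.8, 144 and 149, and so did not come down where its neighbour AT2G32140 did (13.3, 89.7 and 31.6). By the rule none of the 7 could be within 2-fold of the control at 24 h, since it would then be a member. AT1G11210 was more than 2-fold lower and the other 6 more than 2-fold higher. How far shared probes between tandem copies enter these values was not tested.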

How the data were processed

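Total RNA was hybridized to Affymetrix ATH1 arrays. The authors deposited 1 intensity per probe set on a linear scale; the submitters' processing notes name MAS5. Each array had a 2% trimmed mean of 100.0 over 22810 probe sets. Of 22746 Arabidopsis probe sets, 69.6% to 70.5% per array were at or above the floor of 16.1. The number of arrays limits the precision.

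By platform annotation 13513 probe sets named a single gene, 503 more than 1, and 8730 no gene. RefSeq (TAIR10.1) matched 13436 by gene ID and 72 by symbol. Names excluded 160; no ribosomal protein is marked by name, so these remain in the 13353. Log2 ratios of floored signals were taken in Python 3.11.15 with numpy 2.4.6, pandas 2.3.3 and statsmodels 0.14.6. The floor is the 30th percentile of all signals; measured means above the floor on either array.

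Genes named are the 12 highest ratios among members above the floor on the control, the 8 brightest, the 8 brightest below the floor on the control, all with symbols, those at the thresholds and neighbours. Members and the 22 role lists were chosen with earlier results of these data known, and 12 families after seeing values. The lists are patterns on symbols and RefSeq synonyms, with 7 wrong matches dropped. The rule was tested on simulated data with large rises from control signals above the floor. Members below the floor and smaller ratios were not covered by it. Scaling, floor, pseudocount, thresholds and cross-hybridizing probe sets were varied. Promoter motifs were not analysed here.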

Additional observations from a re-analysis of the deposited data

Results flagged for a closer look

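Probe sets that name no gene or several were outside the comparisons. Of these 9233, 159 met both thresholds of the rule (1.72%, against 1.33% of those that name 1 gene), so they were higher at 3 h than on the control. They were 150 with no name and 9 with several. No group held enough arrays to look for an outlying sample.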

How the results depend on the processing

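The number of members was 178. With other limits in the rule it was 392 at 2-fold and 102 at 4-fold higher at 3 h, and 112 within 1.5-fold at 24 h. With scaling to 17 hybridization control probe sets it was 81, of which 68 were among the 178. That scaling also lowered the median ratio at 3 h to 1.43, the ratios at 3 h of all 17 members with a symbol by more than the probe set error, and the members in role lists from 8 to 4. The share of 3-fold higher probe sets that were members was 77.8% where 16 was added to each signal in place of a floor, and 56.9% with a floor at the 15th percentile (4.26). With the floor at the 45th percentile (33.3) EXLA3 was at 0.71 and HOS3-1 at 0.97 at 3 h. The causes were not tested. Common median, quantile, loess and trimmed mean scaling kept 178, 174, 176 and 178 of the members. With the same 4 scalings the gene-level ratios at 3 h of the 17 moved by less than the probe set error. Dim signals limit the members below the floor. No paired analysis was possible because each group holds 1 array, and for the same reason no replicate could be left out. The promoter alternative was not run.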
